A study of Mus musculus with 12 samples.

Results

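A set of 9 genes of the fibronectin and matricellular group was followed through perinatal lung development: *Fn1*, *Tnc*, *Postn*, *Vcan*, *Sparc*, *Thbs1*, *Thbs2*, *Spp1* and *Tnxb*. They were picked by symbol, with earlier results of these libraries known, and all 9 were found among the 16152 genes of the count table and among the 15994 genes that passed the filter on low counts. Alternative splicing was added through 2 *Fn1* exon events and 1 *Vcan* intron event. Whole lungs of wild-type C57BL/6 mice were sampled on embryonic days E15.5 and E18.5 and postnatal days P5 and P8, with no treatment and with 3 libraries for each time-point, 12 in all. Both sexes were used, with no sex given for a library, and the 3 lungs of a time-point came from 1 litter, so that litter and time-point cannot be told apart and p-values measured the spread between littermates alone.

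Matricellular proteins are secreted into the extracellular matrix, where they bind matrix fibers, growth factors and cell-surface receptors more than they bear load. Fibronectin is the adhesive glycoprotein that cells pull into fibrils through integrins, and the tenascins, periostin, thrombospondins, SPARC, osteopontin and the hyaluronan-binding proteoglycan versican attach to that scaffold or change how cells hold on to it. In the lung many of them come from mesenchymal cells, and they accompany branching, septation and repair.

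Fibronectin transcripts differ by cassette exons, and the reference annotation (GENCODE vM21, GRCm38) holds 2 protein-coding ones, shown here because exon inclusion in *Fn1* was the splicing measurement. The exon of 273 bases, which encodes the extra domain B repeat, lay at chr1:71613763-71614035 on the minus strand and was present in 1 annotated transcript and skipped in 7. The exon of 270 bases, for the extra domain A repeat, lay at chr1:71603660-71603929 on the same strand, with 4 transcripts that held it and 4 that skipped it. Both lengths are multiples of a codon, and each repeat is a fibronectin type III module. The capitals mark GAAGA, a purine-rich motif of a kind bound by splicing factors, searched on the transcribed strand, with 1 copy in each exon. Of 398 internal coding exons of 270 to 273 bases, 47.2% held at least 1 copy, so that its presence was common.
Fn1 exon of 273 bases: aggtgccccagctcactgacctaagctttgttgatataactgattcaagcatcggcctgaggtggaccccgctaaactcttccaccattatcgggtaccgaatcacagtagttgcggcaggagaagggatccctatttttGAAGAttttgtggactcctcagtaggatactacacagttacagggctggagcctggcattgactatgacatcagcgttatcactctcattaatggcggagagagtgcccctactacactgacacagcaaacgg
Fn1 exon of 270 bases: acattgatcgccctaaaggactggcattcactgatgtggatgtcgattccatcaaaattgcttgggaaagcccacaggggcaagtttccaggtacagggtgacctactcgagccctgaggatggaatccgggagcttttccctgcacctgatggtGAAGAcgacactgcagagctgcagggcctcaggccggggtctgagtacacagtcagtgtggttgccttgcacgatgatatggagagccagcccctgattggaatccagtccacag

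*Fn1* (ENSMUSG00000026193.15, chr1:71585520-71653200, minus strand) rose between the last embryonic and the first postnatal time-point. Its level at E15.5 was 332, 190 and 326 CPM (reads of the gene for every 1000000 mapped reads) in replicates 1, 2 and 3. At E18.5 the 3 libraries had 355, 389 and 304 CPM. At P5 they had 1224, 1093 and 1057 CPM, and at P8 1087, 1004 and 1080 CPM. Every postnatal library was thus above every embryonic one, and the ranges of E15.5 and E18.5 overlapped, as did those of P5 and P8. Between E18.5 and P5 its log2 fold change was 1.78 ± 0.18 (SE), a 3.42-fold rise (edgeR quasi-likelihood test, FDR = 2.2e-06). The steps before and after it did not pass the test, with log2 fold changes of 0.31 ± 0.18 (edgeR FDR = 0.22) and -0.11 ± 0.18 (edgeR FDR = 0.71). A change was called where the FDR, adjusted over all genes tested, was under 0.05 and the absolute log2 fold change was above 1.

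**Figure D1:**
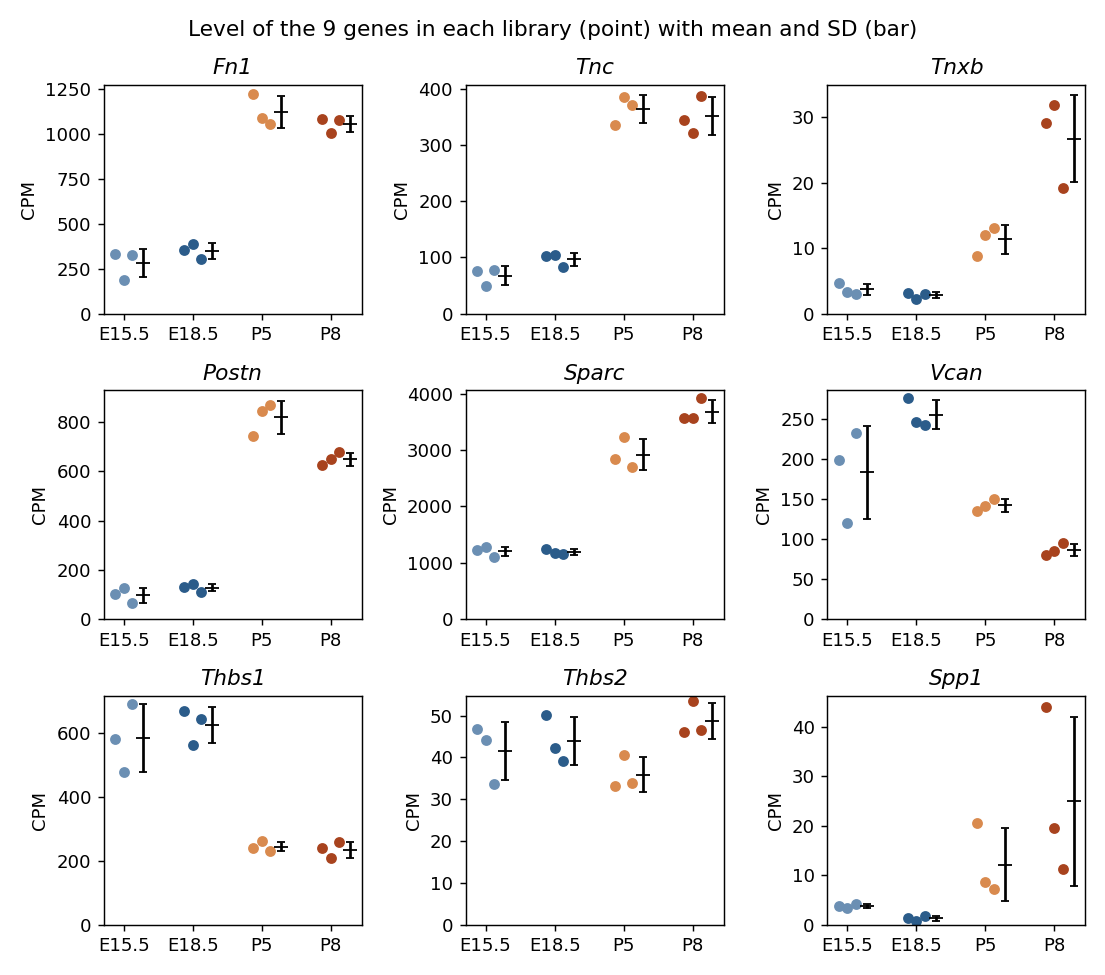
Level of each of the 9 genes in CPM (vertical axis, linear from 0) at the 4 time-points, with 1 point for each library and the mean with SD beside each group of 3. For *Fn1*, *Tnc*, *Tnxb*, *Postn* and *Sparc* all P5 and P8 points lie above all E15.5 and E18.5 points, and for *Thbs1* all lie below them.

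The level of *Fn1* in E15.5 replicate 2 was low, by 0.79 on the log2(CPM + 1) scale against the mean of the other E15.5 libraries. So were those of *Tnc* (-0.65) and *Vcan* (-0.84), and these genes all lie in the top quartile of exonic length. *Postn* and *Tnxb* lie in that quartile too, and differed by 0.65 and -0.13 in the same library. Outside the quartile, *Thbs1* differed by -0.41, *Spp1* by -0.18, *Sparc* by 0.13 and *Thbs2* by 0.15 in E15.5 replicate 2. In that library the median difference from the other E15.5 libraries was -0.10 for genes in the top quartile of exonic length and 0.07 for those in the bottom quartile, the widest such gap of the 12 libraries in that direction. Without it the log2 fold change of *Fn1* from E15.5 to E18.5 was 0.09 (edgeR FDR = 0.62). The part of transcript length in these values was not tested.

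Inclusion of both *Fn1* exon events was lower in every postnatal library than in every embryonic one. The events (MmuEX0019422 and MmuEX0019423 in the VastDB catalogue) are those that the study's event tables list for *Fn1* as differing between these same libraries, so their values are a description and were given no test. The event table carries no coordinates, so the events were not matched to annotated exons. Whether either is the exon of 273 bases or that of 270 bases was not determined here. Inclusion is given as percent spliced in (PSI), the share of reads over the event that include the exon.

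MmuEX0019422 was included at 73.9%, 83.1% and 77.8% at E15.5 and at 74.7%, 64.0% and 70.5% at E18.5. At P5 it was at 41.7%, 42.4% and 43.4%, and at P8 at 39.8%, 37.8% and 40.9%. The means were 78.3% ± 4.65 (SD, n = 3), 69.7% ± 5.41, 42.5% ± 0.858 and 39.5% ± 1.56 in order of time. The lowest embryonic value was 64.0% (95% Wilson interval 60.0 to 67.6% from 623 corrected reads), and the highest postnatal one 43.4% (40.96 to 45.9% from 1555 reads), so that the embryonic and postnatal ranges lay apart. E15.5 and E18.5 overlapped, and the P8 values lay just under those of P5. Wilson intervals cover counting error only.

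MmuEX0019423 had the wider gap. Its inclusion was 72.2%, 66.4% and 78.4% at E15.5 and 63.4%, 52.9% and 68.6% at E18.5. At P5 it was 10.4%, 13.5% and 12.9%, and at P8 14.04%, 14.02% and 12.4%. Its E18.5 mean of 61.7% ± 7.98 (SD, n = 3) was followed by 12.3% ± 1.64 at P5, a difference of -49.4 percentage points, beside -27.2 points for MmuEX0019422. The lowest embryonic library (E18.5 replicate 2) had a Wilson interval of 47.9 to 57.7% from 390 reads, and the highest postnatal library one of 12.1 to 16.2% from 1117 reads. E18.5 replicate 2 had the lowest embryonic inclusion of both exons, and P5 and P8 overlapped for MmuEX0019423.

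Multiplying the level by the inclusion in each library splits *Fn1* into an exon-containing and an exon-lacking share, on the assumption that reads along the gene divide as the event does. For MmuEX0019423 the exon-containing share was 213 ± 10.6 CPM (SD, n = 3) before birth at E18.5 and 137 ± 10.1 CPM after it at P5, the latter 0.644 of the former. The exon-lacking share went from 136 ± 44.1 to 987 ± 95.05 CPM, a ratio of 7.25. For MmuEX0019422 both shares were larger at P5, the exon-containing one by a ratio of 1.97 and the exon-lacking one by 6.07. On this estimate the postnatal gain in *Fn1* lay mostly in transcripts without the 2 exons, and transcripts with MmuEX0019423 were fewer at P5 than at E18.5.

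**Figure D2:**
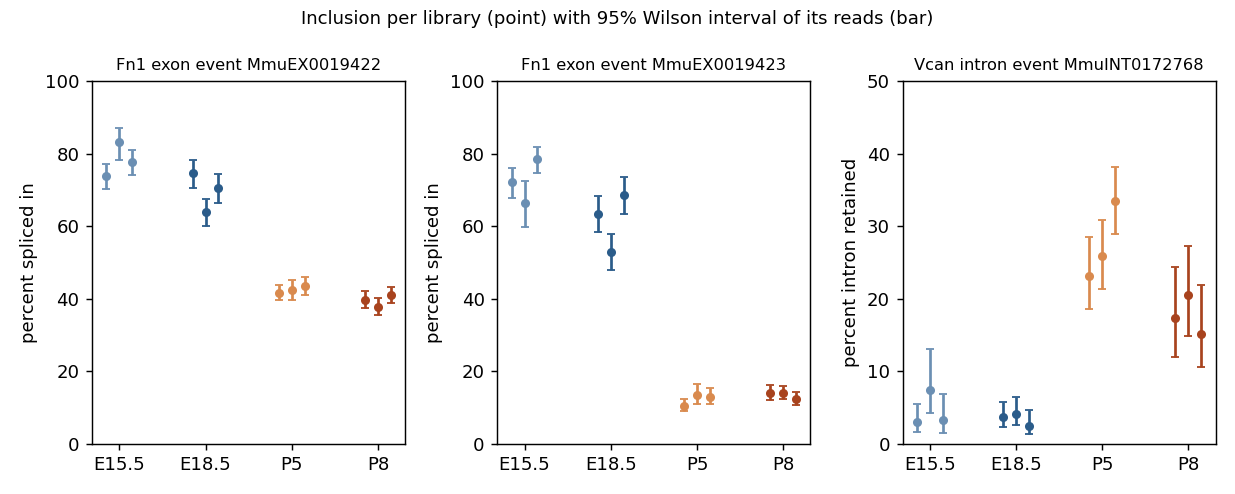
Percent spliced in of 2 *Fn1* exon events and percent retained of 1 *Vcan* intron (vertical axes, percent, with a shorter axis for *Vcan*) at the 4 time-points, with 1 point for each library and its 95% Wilson interval as the bar. Both exons are lower at P5 than at E18.5, with P5 means of 42.5% and 12.3%, and the intron is higher, with a P5 mean of 27.5%.

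The tenascins *Tnc* and *Tnxb* both rose between E18.5 and P5, from very different levels. *Tnc* (ENSMUSG00000028364.15, chr4:63959785-64047015, minus strand) encodes tenascin-C, a large hexameric glycoprotein of developing and injured tissue that loosens adhesion to fibronectin. Its libraries had 76.1, 48.6 and 77.7 CPM at E15.5 and 103, 104 and 83.3 CPM at E18.5. They had 336, 385 and 371 CPM at P5 and 344, 321 and 387 CPM at P8. Each E18.5 library was above each E15.5 one, each P5 library far above both, and P8 overlapped P5. The log2 fold change of *Tnc* was 1.999 ± 0.16 between E18.5 and P5 (edgeR FDR = 2.4e-07). The earlier step of 0.52 ± 0.15 (edgeR FDR = 0.031) was under the fold cutoff, and the FDR was 0.055 without E15.5 replicate 2.

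*Tnxb* (ENSMUSG00000033327.16, chr17:34670535-34719815, plus strand) encodes tenascin-X, a tenascin of connective tissue that binds collagen fibrils. It had 4.71, 3.38 and 3.05 CPM at E15.5 and 3.12, 2.26 and 3.06 CPM at E18.5. After birth it had 8.83, 12.04 and 13.1 CPM at P5 and 29.1, 31.9 and 19.3 CPM at P8. The embryonic time-points overlapped, P5 was above both, and P8 was above P5 in every library. It was the only one of the 9 genes called in 2 adjacent steps, with log2 fold changes of 2.09 ± 0.23 from E18.5 to P5 (edgeR FDR = 4.7e-06) and 1.23 ± 0.22 from P5 to P8 (edgeR FDR = 0.0049). P8 replicates 1 and 2, its highest libraries, also held thymus transcripts, with sums of 154 and 294 CPM over 6 thymus markers, and more cartilage, bone and muscle transcripts than P8 replicate 3. Without these and E15.5 replicate 2 the step from P5 to P8 was 0.74, under the fold cutoff. That refit left only P8 replicate 3, the lowest P8 library for *Tnxb*, at P8. The part of such tissue in the P8 level was not tested, and fewer cells of a type and less RNA per cell cannot be told apart in whole lung.

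*Postn* (ENSMUSG00000027750.16, chr3:54361109-54391037, plus strand) encodes periostin, a fasciclin-domain protein that links tenascin-C, collagen and fibronectin. Its libraries had 100, 127 and 64.9 CPM at E15.5 and 131, 142 and 111 CPM at E18.5. At P5 they reached 741, 845 and 870 CPM, and at P8 623, 649 and 676 CPM. The embryonic time-points overlapped, and the P5 values were the highest of the series, with every P8 library under every P5 one. *Postn* rose 6.78-fold from E18.5 to P5, or by 2.76 ± 0.19 on the log2 scale (edgeR FDR = 6.8e-08), and the step to P8 of -0.35 ± 0.18 did not pass the test (edgeR FDR = 0.18). In E15.5 replicate 2, where *Fn1*, *Tnc* and *Vcan* were low, *Postn* was the highest of its time-point. The E15.5 libraries also differed in heart and skeletal muscle markers, with sums of 428, 446 and 16.03 CPM in replicates 1 to 3. That is the order of *Postn* at E15.5. The 2 orders were also alike at P5, but they differed at E18.5 and were opposite at P8. The part of such tissue in the level of *Postn* was not tested.

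*Sparc* (ENSMUSG00000018593.13, chr11:55394500-55423183, minus strand) encodes the collagen-binding, calcium-binding protein also called osteonectin, which takes part in collagen assembly. It had 1222, 1274 and 1110 CPM at E15.5 and 1248, 1171 and 1156 CPM at E18.5. At P5 its libraries had 2837, 3225 and 2701 CPM, and at P8 3564, 3569 and 3919 CPM. The embryonic values overlapped, and P5 and P8 formed 2 steps with no overlap. From E18.5 to P5 *Sparc* rose by a log2 fold change of 1.38 ± 0.080 (edgeR FDR = 2.2e-08), and the further 0.32 ± 0.079 to P8 passed the FDR alone (edgeR FDR = 0.019). Before birth the log2 fold change was -0.01 ± 0.079, with an FDR of 0.97 in edgeR, the smallest of the 9 genes in size.

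*Vcan* (ENSMUSG00000021614.16, chr13:89655312-89742509, minus strand), for versican, the large chondroitin sulfate proteoglycan of provisional matrix, was lower after birth. Its libraries had 198, 120 and 233 CPM at E15.5 and 276, 247 and 243 CPM at E18.5. They had 135, 141 and 150 CPM at P5 and 79.9, 85.5 and 94.6 CPM at P8. E18.5 was above every other time-point in every library, and P8 was below every other one. The log2 fold changes were -0.76 ± 0.18 from E18.5 to P5 (edgeR FDR = 0.002) and -0.73 ± 0.18 from P5 to P8 (edgeR FDR = 0.017), each under the fold cutoff. Over both steps together, E18.5 to P8, *Vcan* was called lower with -1.49 ± 0.18 (edgeR FDR = 9.1e-06).

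Retention of 1 *Vcan* intron (MmuINT0172768), also listed for a difference between these libraries and so described with no test, was higher after birth. It was 3.05%, 7.35% and 3.33% at E15.5 and 3.72%, 4.09% and 2.46% at E18.5. It was 23.1%, 25.9% and 33.5% at P5 and 17.3%, 20.5% and 15.1% at P8. The embryonic and postnatal ranges lay apart, and all P8 values were under all P5 values. The reads behind each value ran from 139 to 488, and the widest postnatal interval was that of P8 replicate 1, 11.9 to 24.4% (Wilson). Taken with the level of the gene, the share without the intron was 246 ± 16.7 CPM in E18.5, 103 ± 2.45 in P5 and 71.5 ± 7.67 in P8 libraries (SD, n = 3). Over the same time-points the intron-retaining share was 8.78 ± 2.43, 39.3 ± 9.91 and 15.2 ± 1.99 CPM.

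The thrombospondins *Thbs1* and *Thbs2*, trimeric proteins that inhibit angiogenesis through CD36 and CD47, differed in course. *Thbs1* (ENSMUSG00000040152.8, chr2:118111876-118127133, plus strand), whose product also activates latent TGF-beta, had 583, 480 and 693 CPM at E15.5 and 670, 564 and 645 CPM at E18.5. It had 241, 261 and 231 CPM at P5 and 240, 208 and 258 CPM at P8. The 2 embryonic time-points overlapped, the 2 postnatal ones overlapped, and the lowest embryonic library was above the highest postnatal one. *Thbs1* fell by 1.27 ± 0.13 on the log2 scale from E18.5 to P5 (edgeR FDR = 2.3e-06), and was the only one of the 9 genes called lower in an adjacent step. The steps before and after were 0.10 ± 0.13 and -0.07 ± 0.13, with edgeR FDR values of 0.60 and 0.73.

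*Thbs2* (ENSMUSG00000023885.8, chr17:14665500-14694235, minus strand) kept within 33.1 to 53.6 CPM in all 12 libraries. It had 46.8, 44.1 and 33.7 CPM at E15.5 and 50.2, 42.4 and 39.2 CPM at E18.5. Its postnatal libraries had 33.1, 40.7 and 34.0 CPM at P5 and 46.0, 53.6 and 46.5 CPM at P8. P8 was above P5 in every library, and the other neighbouring time-points overlapped. Between E18.5 and P5 its log2 fold change was -0.21 ± 0.13 (edgeR FDR = 0.16), and from P5 to P8 it was 0.42 ± 0.13 (edgeR FDR = 0.039), under the fold cutoff. *Thbs2* was not called in any of the 6 pairs of time-points.

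*Spp1* (ENSMUSG00000029304.14, chr5:104435118-104441050, plus strand) encodes osteopontin, an integrin- and CD44-binding phosphoprotein made by macrophages, bone cells and some epithelia. Its libraries had 3.76, 3.40 and 4.19 CPM at E15.5 and 1.38, 0.727 and 1.67 CPM at E18.5. They had 20.6, 8.63 and 7.12 CPM at P5 and 44.1, 19.6 and 11.2 CPM at P8. All E18.5 values lay under all E15.5 values and all P5 values above both, whereas P5 and P8 overlapped and each held 1 library far above the others, P5 replicate 1 and P8 replicate 1. *Spp1* rose by 3.37 ± 0.57 (log2) between E18.5 and P5 (edgeR FDR = 0.00016), the largest estimate of the 9 genes and the one with the largest standard error. Without P5 replicate 1 it was 2.70, under the 2.79 of *Postn*. The log2 fold change from E15.5 to E18.5 was -1.58 ± 0.55 and missed the threshold (edgeR FDR = 0.060), which it passed in 8 of 21 refits with other settings or libraries. The step from P5 to P8 was 1.02 ± 0.49 (edgeR FDR = 0.17). It became -0.15 without E15.5 replicate 2 and P8 replicates 1 and 2, the libraries with most thymus transcripts, which left only P8 replicate 3 at P8. As few as 38 reads stood behind a library's value at E18.5, and 18.8% of the exonic bases of *Spp1* are shared with the annotated gene Gm42793, where reads could be assigned to neither.

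Of the markers of macrophages, of cartilage and bone, and of muscle, none was highest in the same library as *Spp1* at every time-point. The summed level of 6 macrophage markers (*Cd68*, *Adgre1*, *Csf1r*, *Marco*, *Chil3* and *Mrc1*) ranged from 47.5 to 53.8 CPM at E18.5, from 150 to 210 CPM at P5 and from 286 to 325 CPM at P8, with all 6 above 0 at each time-point. E18.5 replicate 3, P5 replicate 1 and P8 replicate 1 had the highest macrophage sum of their time-point as well as the highest *Spp1*. E15.5 replicate 2 had the highest macrophage sum of E15.5, 58.7 CPM, and the lowest *Spp1*. P8 replicate 3 had a higher macrophage sum than P8 replicate 2 (291 against 286 CPM) and less *Spp1*. P8 replicate 1 also had 12.1 CPM of *Ibsp*, a bone sialoprotein, against 1.60 and 0.904 CPM in the other P8 libraries, and 293 CPM of *Acta1*, of skeletal muscle, against 68.6 and 1.64 CPM. The bone genes *Bglap* and *Dmp1* were likewise highest in P8 replicate 1, at 2.13 and 3.53 CPM, against 0.343 and 1.03 CPM in P8 replicate 2. Over 6 cartilage and bone markers P8 replicate 2 had the highest sum of its time-point (78.7, 106 and 6.39 CPM in replicates 1 to 3). Most of that sum was the cartilage gene *Col2a1* (53.6, 93.7 and 4.27 CPM). P5 replicate 1 had the lowest cartilage and bone sum of P5 (7.10, 17.2 and 9.78 CPM). E15.5 replicate 3 and E18.5 replicate 3, with the highest *Spp1* of their time-points, had the highest cartilage and bone sums there, 62.3 and 45.6 CPM. Over 6 heart and skeletal muscle markers P8 replicate 1 was highest (386, 261 and 51.7 CPM) and P5 replicate 1 lowest (55.7, 130 and 156 CPM). Without P8 replicate 1 the log2 fold change of *Spp1* from P5 to P8 was 0.27 (edgeR FDR = 0.73). The part of macrophages, bone or muscle in the level of *Spp1* was not tested.

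**Figure D3:**
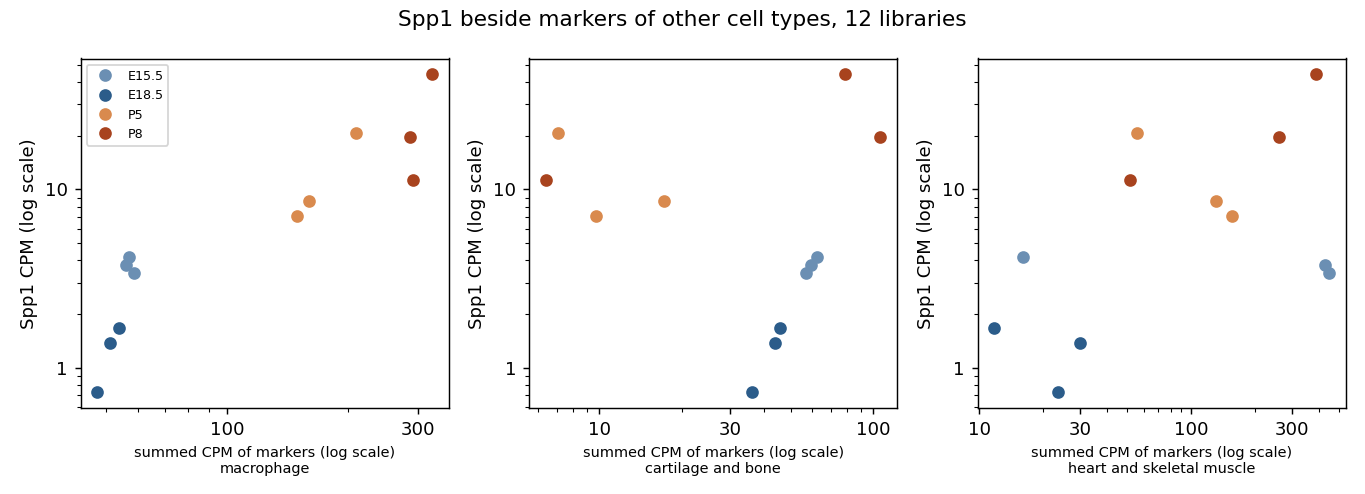
Level of *Spp1* (vertical axis, CPM, log scale) against the summed level of 6 markers each of macrophages, of cartilage and bone, and of heart and skeletal muscle (horizontal axes, CPM, log scale), with 1 point for each of the 12 libraries colored by time-point. *Spp1* is lowest in the E18.5 libraries, where macrophage markers are also lowest, and highest in P8 replicate 1, at 44.1 CPM, where macrophage markers are highest. Within E18.5 and P5 the libraries have the same order by *Spp1* and by macrophage markers, and within E15.5 and P8 they do not. By cartilage and bone markers the order is the same within E15.5 and E18.5 only, and by heart and skeletal muscle markers within P8 only.

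Across the 9 genes, most of the movement fell between E18.5 and P5. In that step 6 genes were called higher (*Sparc*, *Fn1*, *Postn*, *Tnc*, *Spp1* and *Tnxb*), beside 17.5% of all 15994 genes tested, and 1 was called lower (*Thbs1*), beside 9.34% of all genes. *Vcan* and *Thbs2* were not called. The FDR alone was passed by 8 of the 9, beside 71.1% of all genes. The median log2 fold change of the 9 genes was 1.78, and that of all genes -0.0024. Before birth (E15.5 against E18.5) the 9 genes gave no call in either direction, beside 1.59% of all genes higher and 1.46% lower, where 4 had an unadjusted p under 0.05 in edgeR, 1 (*Tnc*) passed the FDR alone beside 21.5% of all genes, and DESeq2 and the edgeR likelihood ratio test each called 1 (*Spp1*, lower). From P5 to P8 only *Tnxb* was called higher, beside 2.88% of all genes, and none was called lower by edgeR or DESeq2, beside 0.0875% of all genes, with 1 gene (*Vcan*) under an unadjusted p of 0.05 in that direction. The FDR alone was passed by 4, beside 17.96% of all genes.

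Pairs of time-points further apart gave nearly the same counts. From E15.5 to P5 7 of the 9 genes were called in either direction, beside 31.8% of all genes. Between E15.5 and P8 it was 8 of 9 beside 32.3%, and between E18.5 and P8 8 of 9 beside 29.0%, with *Vcan* added to the 7 in both. The call of *Vcan* from E15.5 to P8, at -1.01 close to the fold cutoff, was lost in 7 of 21 refits, which left 7 of 9. These pairs share libraries with the adjacent ones and with each other. The genes were chosen with the results of these libraries known, so that these counts describe the 9 genes and are not independent evidence about the group.

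**Figure D4:**
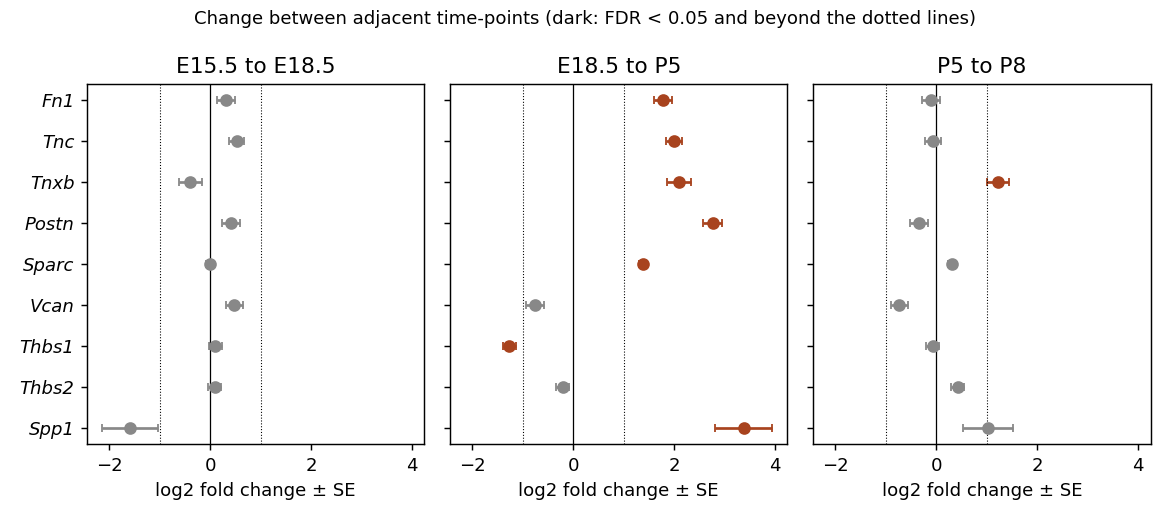
Log2 fold change with its SE (horizontal axis) of each of the 9 genes between adjacent time-points, from the edgeR fit of all 12 libraries, with dark points for genes called and dotted lines at -1 and 1. The step from E18.5 to P5 holds 7 of the called changes, 6 upward and 1 downward, and the step from P5 to P8 holds 1.

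Relative to exonic length, *Sparc* had the highest level at every time-point, from 315 ± 13.1 CPM per kilobase at E18.5 to 973 ± 53.8 CPM per kilobase at P8 (SD, n = 3). *Thbs1* had rank 2 before birth, at 96.4 ± 17.6 and 103 ± 9.18 CPM per kilobase, and rank 5 after it, at 40.3 ± 2.48 and 38.7 ± 4.16. *Fn1*, with 29.9 ± 3.65 CPM per kilobase in E18.5 and 96.2 ± 7.502 at P5, went from rank 3 to rank 2. *Postn* had 14.7 ± 1.82 CPM per kilobase in E18.5 and 94.1 ± 7.83 in P5 lungs, where its range overlapped that of *Fn1*, and *Tnc* from 12.4 ± 1.49 to 46.9 ± 3.26. *Tnxb* was lowest throughout, at 0.230 ± 0.039 CPM per kilobase at E18.5 and 2.19 ± 0.543 at P8. Neighbours in the order whose ranges overlapped were *Vcan*, *Postn*, *Tnc* and *Thbs2* in turn at E15.5, *Postn* and *Tnc* at E18.5, *Vcan*, *Spp1* and *Thbs2* in turn at P5, and *Tnc* with *Thbs1* and *Spp1* with *Thbs2* at P8.

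Whole-lung libraries carried between 41337443 and 53901957 reads counted in genes. Epithelial markers (*Epcam*, *Cdh1*, *Nkx2-1* and *Krt18*) were present in all libraries, with sums of 677 to 788 CPM at E18.5 and lower ones of 419 to 459 CPM at P5. Markers of thymus (*Cd3e*, *Cd3g*, *Cd8a*, *Rag1*, *Ptcra* and *Dntt*) summed to 24.6 CPM in E15.5 replicate 2, far more in P8 replicates 1 and 2, and 0.115 to 12.6 CPM in the other 9 libraries. The called changes from E18.5 to P5 of the 9 genes stood without these 3 libraries, none of which is an E18.5 or P5 library. That refit could change only the shared spread and scaling, so it did not test for other tissue in this step. Endothelial markers (*Pecam1*, *Cdh5*, *Kdr* and *Tie1*) summed to between 684 and 759 CPM at E15.5 and between 936 and 1048 CPM at E18.5. They summed to between 1944 and 2064 CPM at P5 and between 1734 and 2081 CPM at P8, with all 4 above 0. Their sum thus rose without overlap before birth as well as from E18.5 to P5. Fibroblast markers (*Col1a1*, *Col1a2*, *Col3a1*, *Pdgfra*, *Tcf21* and *Dcn*) summed to between 3697 and 3911 CPM at E18.5 and between 3689 and 4105 CPM at P5, then to between 5622 and 6196 CPM at P8, with all 6 above 0. Smooth muscle and myofibroblast markers (*Acta2*, *Tagln*, *Myh11*, *Cnn1* and *Des*) overlapped between E18.5 (618 to 754 CPM) and P5 (672 to 772 CPM). Mesothelial markers (*Wt1*, *Msln*, *Upk3b* and *Lrrn4*) were higher at both postnatal time-points than at E18.5, from 45.2 to 53.6 CPM at E18.5 to 105 to 172 CPM at P5 and 442 to 491 CPM at P8. At E15.5 they summed to between 77.4 and 108 CPM, a range that overlapped P5. Platelet and megakaryocyte markers (*Pf4*, *Ppbp*, *Itga2b*, *Gp9* and *Gp1bb*) summed to between 12.6 and 18.4 CPM at E18.5 and between 28.5 and 36.1 CPM at P5, with all members of both lists above 0. The part of these cells in the levels of the 9 genes was not tested.

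Among all genes with a symbol and a mean of at least 5 CPM (11618 genes), the ones closest in course to each of the 9 were found by the Pearson correlation of log2(CPM + 1) over the 12 libraries, which share the 4 time-points, so that any genes that step between E18.5 and P5 correlate with each other. *Fn1* was closest to *Zbtb20* (r = 0.99) and *Arhgap31* (r = 0.99), *Tnc* to the latent TGF-beta binding protein gene *Ltbp2* and the VEGF receptor gene *Kdr* (r = 0.997 each), and *Postn* to *Arpc5* (r = 0.998) and *Chmp2a* (r = 0.997). *Thbs1* was closest to the receptor gene *Ror2* (r = 0.99) and the transcription factor gene *Gli3* (r = 0.99), which had a mean of 72.9 CPM in E18.5 and 26.98 CPM in P5 lungs. *Sparc* was closest to *Pbxip1* and *Chia1* (r = 0.996 each), and *Tnxb* to *Qsox1* (r = 0.99) and *Chad* (r = 0.98), for the cartilage matrix protein chondroadherin. *Vcan* was closest to *Creb1* (r = 0.98) and *Smad5* (r = 0.98), and *Spp1* to *Gpnmb* (r = 0.96), a gene of macrophages, and *Cfp* (r = 0.96), for properdin. *Thbs2* had the weakest likeness, to *Dusp18* (r = 0.89) and *Ddr1* (r = 0.83).

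Genes that bind or resemble the 9 were counted in 4 lists, in the fit of all genes. Of 20 receptor and assembly genes for fibronectin, 19 were tested, and 5 were called higher from E18.5 to P5 (*Itgb7*, *Itgb3*, *Itgb6*, *Itga4* and *Tns1*) and 1 lower (*Itgb8*), beside 17.5% and 9.34% of all genes. Their median log2 fold change was 0.56, against -0.0024 over all genes. *Itgb6*, an epithelial integrin chain that binds fibronectin and activates TGF-beta, rose by 2.42 ± 0.14, from 7.82 ± 0.383 to 39.5 ± 3.57 CPM (SD, n = 3, edgeR FDR = 2.7e-08). *Itgb8*, whose integrin also activates TGF-beta, fell by 1.54 ± 0.19 on the log2 scale, from 9.75 ± 2.55 to 3.16 ± 0.423 CPM (edgeR FDR = 1.3e-05). *Itgb7*, a chain of leukocyte integrins, rose by 3.23 ± 0.24 to 9.41 ± 1.01 CPM (edgeR FDR = 1.3e-07). The main chains of the classical fibronectin receptor were not called, with log2 fold changes of 0.05 for *Itga5* (edgeR FDR = 0.4) and 0.61 for *Itgb1* (edgeR FDR = 6e-06). None of the list was called before birth or from P5 to P8 by edgeR or DESeq2, where 11 and 9 genes had an unadjusted p under 0.05 in edgeR and 10 and 3 passed the FDR alone, beside 21.5% and 17.96% of all genes.

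Of 26 other matricellular genes 23 were tested, with 11 called higher and 2 lower from E18.5 to P5, beside 17.5% and 9.34% of all genes, and a median log2 fold change of 0.86. *Spock2*, for testican-2, a SPARC-related proteoglycan, rose by 5.48 ± 0.18 (edgeR FDR = 3.7e-10), from 7.64 ± 0.599 to 321 ± 29.8 CPM. *Lgals3*, for galectin-3, was called in both steps up to P5. It rose by 1.23 ± 0.19 from E15.5 to E18.5 (edgeR FDR = 0.0017) and by 2.94 ± 0.18 from E18.5 to P5 (edgeR FDR = 3e-08), to 59.2 ± 8.95 CPM. *Smoc2*, a further SPARC-related gene, fell by 3.09 ± 0.20, from 64.2 ± 14.04 to 7.12 ± 1.08 CPM (edgeR FDR = 4.3e-08), and rose again by 1.04 ± 0.19 to P8 (edgeR FDR = 0.0053). 4 CCN genes, which encode growth factor-binding matricellular proteins, were among the 11 that rose (*Ccn1*, *Ccn2*, *Ccn4* and *Ccn5*). *Ccn5* started from only 0.430 ± 0.179 CPM at E18.5 (SD), and *Ccn3* was not called in this step. Before birth only *Lgals3* was called, higher, beside 1.59% of all genes. From P5 to P8 6 genes were called, all higher, beside 2.88% of all genes. Fewer were called without the 3 libraries with most thymus transcripts, which left only P8 replicate 3 at P8 and gave fewer calls over all genes as well.

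Of 22 genes of the hyaluronan and versican network 20 were tested, and 6 were called higher and 6 lower from E18.5 to P5, beside 17.5% and 9.34% of all genes, with a median of -0.04. The hyaluronan synthase genes *Has2* and *Has3* were among those that fell, as was *Hapln1*, whose product links hyaluronan to versican, by 1.60 ± 0.067 (edgeR FDR = 2.3e-09), from 63.1 ± 3.85 to 19.6 ± 0.515 CPM. *Stab2*, a hyaluronan clearance receptor gene, fell by 1.73 ± 0.19, from 8.69 ± 0.197 to 2.45 ± 0.372 CPM (edgeR FDR = 3.4e-06). *Adamts15*, for a versican-cleaving protease, rose by 1.88 ± 0.12, from 13.2 ± 2.35 to 46.0 ± 2.66 CPM (edgeR FDR = 4.2e-08). *Cemip2*, for a cell-surface protein that breaks down hyaluronan, rose by 1.67 ± 0.099, from 78.3 ± 7.08 to 235 ± 9.59 CPM (edgeR FDR = 2.6e-08). No gene of this list was called before birth by edgeR or DESeq2, where 7 had an unadjusted p under 0.05 in edgeR and 4 passed the FDR alone, beside 21.5% of all genes, and 1 (*Has1*, higher) was called from P5 to P8, beside 2.88%.

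All 10 receptor genes for thrombospondin and osteopontin were tested, with 3 called higher and none lower from E18.5 to P5 by edgeR and DESeq2, beside 17.5% and 9.34% of all genes, and a median of 0.56. In the lower direction 1 gene had an unadjusted p under 0.05 in edgeR. *Cd36*, the scavenger receptor through which thrombospondin-1 acts on endothelium, rose by 4.76 ± 0.30 on the log2 scale, from 22.2 ± 6.96 to 568 ± 25.1 CPM (edgeR FDR = 3.7e-08), while its ligand gene *Thbs1* fell. *Cd44*, a receptor for osteopontin and hyaluronan, rose by 1.35 ± 0.082, from 76.5 ± 7.98 to 184 ± 6.08 CPM (edgeR FDR = 2.9e-08). *Cd47*, the other main thrombospondin receptor gene, had a log2 fold change of 0.71 (edgeR FDR = 3.9e-07), under the fold cutoff. The step before birth held 1 call, *Cacna2d2*, lower, beside 1.46% of all genes, which was lost without the 3 libraries with most thymus transcripts, and the step from P5 to P8 held none in edgeR or DESeq2, where 3 genes had an unadjusted p under 0.05 in edgeR.

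**Figure D5:**
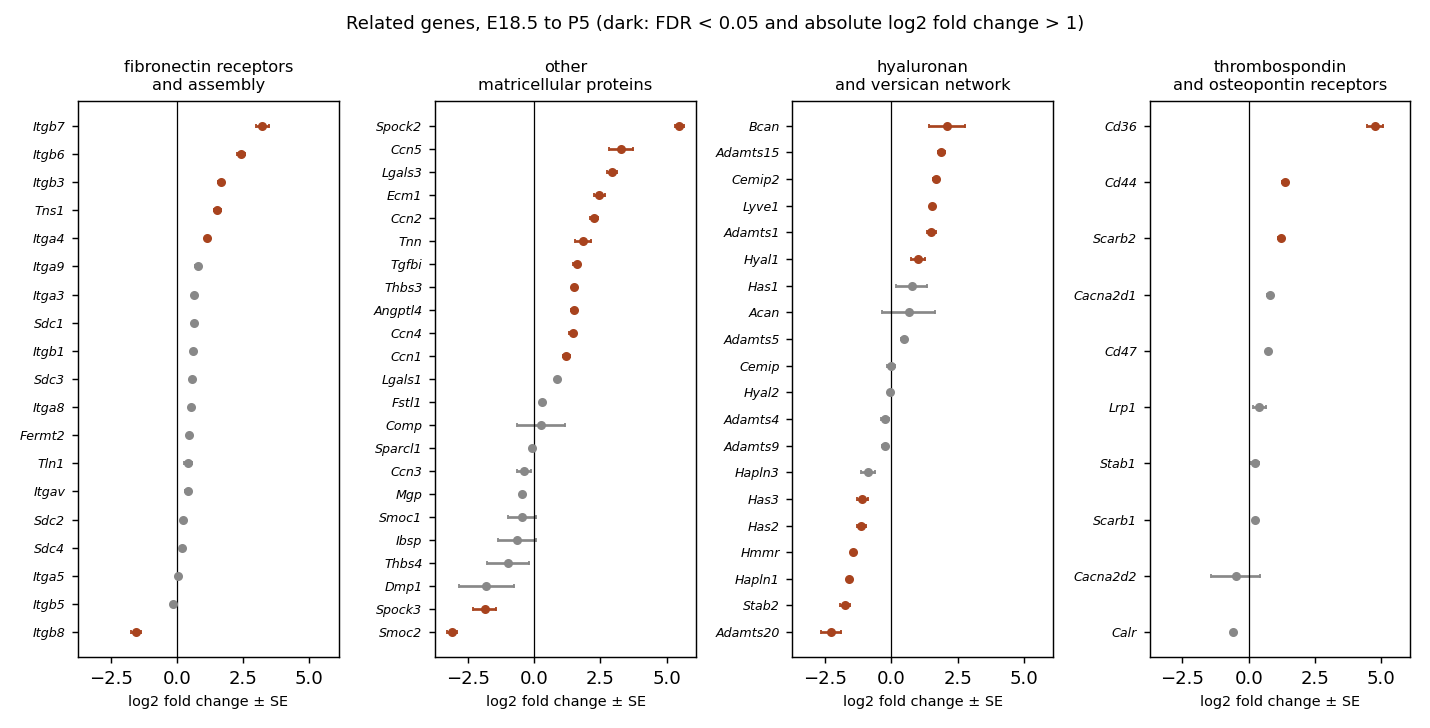
Change between E18.5 and P5 as log2 fold change with SE (horizontal axis) for the tested genes of 4 lists of related genes, sorted within each list, with dark points for genes called. *Spock2* at 5.48 and *Cd36* at 4.76 lie furthest to the right, and *Smoc2* at -3.09 furthest to the left.

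The starts of the genes were read from RefSeq (GRCm38.p6), where 7 of the 9 genes had a window of 250 bases before the start. The letters TATAAA, those of a TATA box, were searched on both strands, and TGANTCA, those of an AP-1 site, likewise. Over all 32851 windows 12.4% held TATAAA and 6.75% held TGANTCA. Among the 7, TATAAA was found in *Tnc*, *Postn*, *Spp1* and, on the reverse strand, *Thbs2*, and TGANTCA in *Tnxb*. The windows of *Tnc*, *Postn* and *Spp1* are shown because these genes rose together from E18.5 to P5 and hold the letters on the gene's strand, in capitals. TATAAA began 26 bases before the start in *Postn*, but 205 in *Tnc* and 211 in *Spp1*. The letters thus did not lie at a shared distance from the start, and whether any of them is a working TATA box was not tested. The *Tnc* window is given up to the first base of the gene in GENCODE, 171 bases (chr4:64047016-64047186, minus strand), and the others in full (chr3:54360857-54361106 and chr5:104434861-104435110, plus strand).
Tnc: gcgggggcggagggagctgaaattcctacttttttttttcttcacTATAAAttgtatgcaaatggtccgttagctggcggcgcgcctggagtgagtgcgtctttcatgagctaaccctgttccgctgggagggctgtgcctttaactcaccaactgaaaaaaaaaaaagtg
Postn: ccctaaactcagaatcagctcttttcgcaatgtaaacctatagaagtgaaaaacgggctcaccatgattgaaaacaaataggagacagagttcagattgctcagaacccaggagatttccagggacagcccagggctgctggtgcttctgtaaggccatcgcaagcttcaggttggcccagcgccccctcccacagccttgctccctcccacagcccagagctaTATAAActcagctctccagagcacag
Spp1: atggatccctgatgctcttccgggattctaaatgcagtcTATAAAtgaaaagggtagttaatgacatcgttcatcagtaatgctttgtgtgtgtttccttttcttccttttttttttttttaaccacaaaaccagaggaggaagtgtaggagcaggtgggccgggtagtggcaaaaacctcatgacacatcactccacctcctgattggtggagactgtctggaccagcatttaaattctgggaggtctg
These matches are a description of the letters and not of binding, and the *Sparc* and *Vcan* windows held neither motif.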

How the data were processed

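Whole mouse lungs were sequenced as paired-end mRNA libraries made with TruSeq RNA protocols, 3 for each of 4 time-points. The authors mapped reads uniquely to mm10 with TopHat2 2.1.1 and Bowtie2 2.3.4 and counted them for each GENCODE vM14 gene with HTSeq 0.10.0. The deposited table of raw counts holds 16152 genes, after a filter by the authors. The deposited CPM table holds 51825 genes as reads per gene for every 1000000 mapped reads. The deposited percent spliced in values come from VAST-TOOLS 2.5.1, for 661162 events, without a coverage filter, each with a quality string from which the corrected reads were read. Library totals were derived from the median ratio of counts to CPM over the genes of the count table. Multiplied by these totals, all 285624 CPM values above 0 gave whole reads (100%, within 0.001 reads). The recovered reads equalled the counts for all 16152 genes, the same genes from which the totals were derived. The same test on these recovered reads called 2851 genes higher and 1525 lower from E18.5 to P5.

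Counts were fitted with edgeR 4.0.16 in R 4.3.3 by the quasi-likelihood test, with TMM scaling, over the 15994 genes that reached 1 CPM in 3 or more libraries, with all 12 libraries in 1 model. Benjamini-Hochberg adjustment ran over all genes tested, and a call needed an FDR under 0.05 and an absolute log2 fold change above 1. The standard error is the log2 fold change divided by the square root of its F statistic. DESeq2 1.42.0 was an alternative. The script was tested on simulated counts. Symbols matched 16136 gene identifiers. Exonic lengths and positions came from GENCODE vM21, of the same genome build, so that lengths may differ slightly from the annotation used for counting. Reads over bases shared by 2 genes could be lost from both, and this touched 2.5% of the exonic bases of *Fn1*, 2.26% of *Tnc* and 3.42% of *Thbs1*. Libraries of 1 time-point differed by more than sampling noise (mean chi-square per gene 13.0 to 75.3), so none was a copy. Samples sharing a replicate number did not deviate together, with correlations from -0.35 to 0.30 over 18 pairs.

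The members and the lists were chosen with earlier results of these data known. Named genes were all 9 members, from each list up to 4 called genes with the largest change from E18.5 to P5 (up to 2 in each direction, mean at least 5 CPM), and the 2 genes most correlated with each member. Other genes in the lists are named where a count of calls is given, after their values were seen. Alternatives were other scalings, no filter, other tests, only the 6 libraries compared, a replicate block, leaving out each library, and the FDR alone. The removal of 3 libraries with thymus transcripts and the recovered reads were added after seeing the data.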

Additional observations from a re-analysis of the deposited data

How the results depend on the processing

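The 7 calls from E18.5 to P5 among the 9 genes held in every alternative run, 21 refits that changed scaling, filter, test, libraries or block. Refits that left out only E15.5 or P8 libraries kept all 6 libraries of this step, so they could change little in it. The log2 fold changes of the 7 called genes kept their direction, with *Spp1* the widest, from 2.70 without P5 replicate 1 to 3.66. Before birth, *Spp1* was called in 8 refits and raised the count of the 9 genes called from 0 to 1 under DESeq2, the edgeR likelihood ratio test, the fit of only the 6 libraries compared, the replicate block, and the fit without the 3 libraries with most thymus transcripts, with a range of 0 to 1 when single libraries were left out (1 without P5 replicate 1, P8 replicate 1 or P8 replicate 3). From P5 to P8 the 1 call was of *Tnxb*, whose log2 fold change without the 3 libraries was 0.74, under the fold cutoff. That refit left only P8 replicate 3 at P8. The cause of these differences was not tested.

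With the FDR alone, which 21.5%, 71.1% and 17.96% of all genes passed in time order, the 9 genes gave 1 call before birth (*Tnc*) and 4 from P5 to P8. By that rule the fibronectin receptors gave 10, 17 and 3 calls in time order, the other matricellular genes 7 before birth and 10 from P5 to P8, the hyaluronan and versican genes 4 and 5, and the thrombospondin and osteopontin receptors 4, 7 and 1. In the fit of only the 6 libraries compared, the other matricellular genes gave 3 calls before birth and the thrombospondin and osteopontin receptors 0, against 1 each. Without the 3 libraries these became 2 and 0. From P5 to P8, where that refit left only P8 replicate 3 at P8, both the other matricellular genes and the hyaluronan and versican genes gave fewer calls, as did all genes. DESeq2 and the likelihood ratio test each gave 2 for the hyaluronan and versican genes from P5 to P8. With single libraries left out, the counts ran from 1 to 2 for the other matricellular genes before birth, from 0 to 2 for the hyaluronan and versican genes from P5 to P8, and from 0 to 1 for the thrombospondin and osteopontin receptors before birth.

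Without the 3 libraries, with P8 replicate 3 alone at P8, the log2 fold change of *Spp1* from P5 to P8, 1.02 with all libraries and not called, was reversed to -0.15. Smaller changes that were never called also changed sign there, *Tnc* from P5 to P8 to 0.07, *Thbs1* to -0.02 before birth and 0.05 from P5 to P8, and *Sparc* before birth to 0.04. *Sparc* was 0.00 with median-of-ratios size factors and with DESeq2, and 0.01 with only the 6 libraries compared. Over single libraries left out, *Sparc* before birth ran from -0.05 to 0.04, *Thbs1* from -0.02 to 0.25 before birth and from -0.15 to 0.02 from P5 to P8, *Thbs2* before birth from -0.04 to 0.18, and *Tnc* from P5 to P8 from -0.15 to 0.00. Scaling by library size alone moved the median of all genes by -0.07 from E18.5 to P5 and changed none of the calls of the 9 genes. The replicate numbers do not pair the libraries, and the fit with them as a block gave 2814 genes higher and 1494 lower from E18.5 to P5, against 2795 and 1494. From E15.5 to P8 the 8 calls among the 9 genes became 7 in 7 of 21 refits, with *Vcan* lost under median-of-ratios size factors, DESeq2, the replicate block and without E15.5 replicates 1 or 3 or P8 replicates 1 or 2. The minimum of 100 corrected reads removed no percent spliced in value, and with 3 libraries a mean cannot move by a full SD when 1 is left out, so these alternatives say nothing of stability.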
